A study of Saccharomyces cerevisiae with 18 samples.

Results

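The genes described here are the 4 siderophore transporter genes SIT1, ARN1, ARN2 and ENB1 and the 3 cell wall mannoprotein genes FIT1, FIT2 and FIT3 of Saccharomyces cerevisiae, 7 of 5449 genes tested. They were chosen by name, with earlier results of the same arrays known, from the contrasts between strains with and without HAC1 and between strains with and without a secreted protein. Their differences between strains are therefore a description with standard errors and no p. How many of them passed the test run across all genes is stated beside the share of all genes that did, and nothing is read from it.

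S. cerevisiae makes no siderophores, the small iron chelators of other fungi and bacteria, but takes up iron bound to them. The 4 transporters sit in the membrane and differ in the chelator they accept, and the FIT proteins are anchored to the cell wall, where they help to hold siderophore iron. When iron is scarce, the transcription factor Aft1 turns these genes on together with those of the reductive route, in which reductases free the iron and the Fet3 and Ftr1 pair brings it in. The glutaredoxins Grx3 and Grx4 hold Aft1 in check when iron is plentiful.

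The arrays cover 6 strains, all made from CEN.PK 113-5D, a MAT a strain that cannot make uracil because its ura3 gene is mutated, and each holding a high copy 2 micron plasmid with a URA3 marker. In the wild type background WN carried the empty vector p426GPD, WI a plasmid for human insulin precursor and WA a plasmid for α-amylase, both proteins being expressed from the constitutive TDH3 (GPD) promoter behind a YAP3 and TA57 leader. The strains dN, dI and dA carried the same 3 kinds of plasmid in a background where kanMX replaced HAC1, whose product switches on the unfolded protein response. Each strain was grown in 3 separate bioreactors on glucose and sampled in mid-exponential phase, and each culture gave 1 Affymetrix Yeast Genome 2.0 array, 18 in all. The cells were measured in bulk, so fewer cells expressing a gene and less RNA per cell cannot be told apart.

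Values are log2 signals, on which a difference of 1 is a doubling, and the level of one gene was not set against that of another because each has its own probes. A signal was taken as background when it lay under the 95th percentile of 5430 probe sets that match no tested gene, which was 4.38 to 4.63 per array. HAC1 lay between 10.54 and 10.96 in the wild type arrays and between 1.08 and 1.75, at background, in the deletion arrays. The a-cell genes MFA1, MFA2 and STE2 were above background in 18 of 18 arrays. Of the α-cell genes, MF(ALPHA)2 was above background in 0 of 18 arrays, while MF(ALPHA)1 was above it in 16 and STE3 in 14. The residual SD over all genes was 0.444 in dN replicate 3 and 0.094 to 0.306 in the other arrays, so the differences of the 7 genes that include dN are also given without that array. For the other genes this is done for FET3, and where a named call was lost or its value moved by over 1.5 times. For WN replicate 1 the protocol text gives a different cell lysis step from that of the remaining 17 arrays, and leaving it out moved the differences of the 5 brighter genes from WN by at most 0.13, for SIT1. Where a call given below was lost without it, the array is named or the fits that lost the call are counted.

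Of the 7 genes, 5 were above background in 18 of 18 arrays, namely SIT1, ARN1, ENB1, FIT2 and FIT3. ARN2 was above background in 0 of 18 arrays and FIT1 in 3 of 18, so neither has a fold change. Each of the 7 genes was read by 1 probe set.

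SIT1 (YEL065W, also called ARN3) encodes the transporter for ferrioxamine and related hydroxamate siderophores. Its log2 signal was 4.56, 4.67 and 5.25 in the 3 WN arrays, 6.14, 5.74 and 5.94 in WI, and 5.80, 6.46 and 6.25 in WA. In the deletion strains it was 6.02, 5.81 and 7.80 in dN, 6.12, 6.49 and 6.02 in dI, and 7.47, 6.64 and 6.92 in dA. The highest WN array lay below the lowest array of every other strain, and dN replicate 3 was the highest of the 18 arrays. In order of their means, WN (4.83 ± 0.37, SD, n = 3) was followed by WI (5.94 ± 0.20), WA (6.17 ± 0.34), dI (6.21 ± 0.24), dN (6.54 ± 1.09) and dA (7.01 ± 0.42). The step from WN to WI was larger than the spread between replicates, and none of the later steps between neighbours was.

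ARN1 (YHL040C) encodes the transporter for ferrichromes. Its log2 signal was 5.94, 5.91 and 6.05 in WN, 6.75, 6.27 and 6.21 in WI, and 6.50, 6.49 and 6.41 in WA. With HAC1 deleted it was 6.67, 6.53 and 7.31 in dN, 6.24, 6.65 and 6.37 in dI, and 6.98, 6.38 and 6.48 in dA. As for SIT1, WN was apart from the rest: its mean of 5.97 ± 0.08 (SD, n = 3) was followed by WI (6.41 ± 0.29), dI (6.42 ± 0.21), WA (6.47 ± 0.05), dA (6.61 ± 0.32) and dN (6.84 ± 0.41). After the step from WN to WI, no neighbours in this order differed beyond their spread.

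ENB1 (YOL158C, also called ARN4) encodes the transporter for the bacterial siderophore enterobactin. Its log2 signal was 6.21, 6.15 and 6.42 in WN, 6.71, 6.53 and 6.58 in WI, and 6.44, 6.96 and 6.63 in WA. It was 7.27, 7.20 and 7.98 in dN, 6.33, 6.71 and 6.00 in dI, and 7.16, 6.60 and 6.69 in dA. Here dN stood apart at the top instead of WN at the bottom, since each dN array lay above the 15 others. The means ran from WN (6.26 ± 0.14, SD, n = 3) through dI (6.35 ± 0.36), WI (6.60 ± 0.09), WA (6.68 ± 0.26) and dA (6.82 ± 0.30) to dN (7.48 ± 0.43), and the step from dA to dN was the single one beyond the spread of its neighbours.

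ARN2 (YHL047C, also called TAF1), the transporter gene for triacetylfusarinine C, ranged from 0.87 to 1.33 over the 18 arrays, all at background. It showed no signal that could be ranked among the strains.

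FIT2 (YOR382W) encodes one of the wall mannoproteins. Its log2 signal was 5.72, 5.76 and 5.87 in WN, 7.16, 6.24 and 6.19 in WI, and 6.27, 6.48 and 6.21 in WA. It was 6.92, 6.68 and 7.52 in dN, 6.60, 6.78 and 6.67 in dI, and 7.10, 6.71 and 7.05 in dA. All WN arrays lay below the 15 others, and WI replicate 1 stood well above the other WI arrays. The order of the means was WN (5.78 ± 0.08, SD, n = 3), WA (6.32 ± 0.14), WI (6.53 ± 0.55), dI (6.68 ± 0.09), dA (6.95 ± 0.21) and dN (7.04 ± 0.43). WN and WA were apart, and dI and dA differed by more than their SD but with overlapping arrays, while the other neighbours lay within their spread.

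FIT3 (YOR383C), which lies next to FIT2 on the chromosome, encodes a mannoprotein of the same group. Its log2 signal was 6.53, 6.53 and 6.55 in WN, 7.57, 6.95 and 6.91 in WI, and 7.01, 7.04 and 7.01 in WA. It was 7.06, 6.94 and 7.70 in dN, 7.44, 7.54 and 7.35 in dI, and 7.85, 7.27 and 7.57 in dA. The WN arrays were again below the 15 others, and the highest mean was that of dA. WN (6.54 ± 0.01, SD, n = 3) was followed by WA (7.02 ± 0.01), WI (7.14 ± 0.37), dN (7.23 ± 0.41), dI (7.44 ± 0.10) and dA (7.56 ± 0.29), and only WN and WA, of the neighbours, differed beyond their spread. FRE5, the neighbour of FIT3 on its other side, was at background in all arrays.

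FIT1 (YDR534C), the remaining mannoprotein gene, ranged from 3.96 to 4.55 and was above background in 1 array each of WA, dN and dA. Its level is a bound in the other 15 arrays.

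In 4 of the 7 genes, SIT1, ARN1, FIT2 and FIT3, each of the 15 arrays of the other strains lay above each of the 3 WN arrays. Over all genes 46 of 5449, or 0.844%, had this pattern. The genes were chosen with these contrasts known, so the counts stand side by side as a description.

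The first set of comparisons asks how the genes differ when HAC1 is missing. Without a secreted protein, the 5 genes above background were all higher in dN than in WN, with no overlap between the arrays of the strains. SIT1 differed by 1.72 ± 0.39 on the log2 scale (SE, n = 3 arrays a strain), or 3.29-fold. FIT2 differed by 1.25 ± 0.23, or 2.39-fold, and ENB1 by 1.22 ± 0.22, or 2.34-fold. The smaller differences were those of ARN1, 0.87 ± 0.20 or 1.83-fold, and FIT3, 0.70 ± 0.19 or 1.62-fold. In limma with Benjamini-Hochberg adjustment over 5449 genes, 5 of the 7 passed an adjusted p of 0.05 as higher, where 9.49% of all genes did, and 5 of the 7 had all dN arrays above all WN arrays, where 14.9% of all genes did. The median over the 7 genes was 0.87 and that over all genes 0.03.

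Part of the size of these differences came from dN replicate 3, the array with the largest spread. Without it SIT1 differed by 1.09 (2.13-fold), ENB1 by 0.97 (1.96-fold), FIT2 by 1.01 (2.02-fold), ARN1 by 0.64 (1.55-fold) and FIT3 by 0.46 (1.38-fold). SIT1, FIT2 and ENB1 stayed the 3 with the largest differences, and 4 genes passed, these 3 and ARN1. FIT3 also failed to pass without WN replicate 1 and without WN replicate 2. In a fit of only the WN and dN arrays 2 genes passed, ENB1 and FIT2.

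With insulin precursor secreted in both backgrounds, the differences lay nearer to 0. Between dI and WI, FIT3 differed by 0.30, SIT1 by 0.27 and FIT2 by 0.15, ARN1 by 0.01 and ENB1 by -0.26, with standard errors of 0.19 to 0.39. The arrays of the strains overlapped for each of the 5 genes. Without WI replicate 1, FIT3 differed by 0.51 and FIT2 by 0.47, and without WI replicate 3 FIT2 differed by -0.02. In this comparison 0 of the 7 genes passed, against 20.2% of all genes in either direction (9.47% higher and 10.8% lower). At an unadjusted p of 0.05 it was 0 of the 7, against 31.9% of all genes, and the median over the 7 was 0.15.

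With α-amylase secreted, 3 of the 7 genes, SIT1, FIT2 and FIT3, had all dA arrays above all WA arrays, against 21.8% of all genes. SIT1 differed by 0.84 ± 0.39 (1.79-fold), FIT2 by 0.63 ± 0.23 (1.55-fold) and FIT3 by 0.54 ± 0.19 (1.45-fold). The arrays of ARN1 and ENB1 overlapped, with differences of 0.15 ± 0.20 and 0.14 ± 0.22, which were -0.04 and -0.03 without dA replicate 1. Of the 7 genes 0 passed, against 23.2% of all genes in either direction (9.60% higher and 13.6% lower), and 4 of the 7 at an unadjusted p of 0.05, against 35.5%. The count after adjustment depended on the libraries that shared the estimate of spread: without dN replicate 3, an array of neither strain, SIT1, FIT2 and FIT3 passed, without dN replicate 2 or WI replicate 1 FIT2 and FIT3 did, and without dA replicate 2 FIT3 did.

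The second set of comparisons asks how the genes differ when a protein is secreted, and its comparisons within a background share the arrays of the empty vector strain. In wild type cells secreting insulin precursor, the 5 genes above background had all WI arrays above all WN arrays, where 6.00% of all genes did. SIT1 was higher by 1.11 ± 0.39 (2.16-fold), FIT2 by 0.74 ± 0.23 (1.68-fold) and FIT3 by 0.61 ± 0.19 (1.52-fold). ARN1 was higher by 0.45 ± 0.20 (1.36-fold) and ENB1 by 0.34 ± 0.22 (1.27-fold). Of the 7 genes 0 passed, where 0.294% of all genes passed, and 4 of the 7 at an unadjusted p of 0.05, where 6.13% did. Without WI replicate 1, the high array, the differences were 1.02 for SIT1, 0.43 for FIT2, 0.39 for FIT3, 0.28 for ARN1 and 0.29 for ENB1. When dN replicate 3, an array of neither strain, was left out of the fit, SIT1 passed.

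With α-amylase in wild type cells, the same 5 genes and FIT1 had all WA arrays above all WN arrays, 6 of 7 against 12.0% of all genes. FIT1 was at background in every WN array and above it in only 1 WA array. SIT1 was higher by 1.34 ± 0.39 (2.54-fold), FIT2 by 0.54 ± 0.23 (1.45-fold) and ARN1 by 0.50 ± 0.20 (1.42-fold). FIT3 was higher by 0.48 ± 0.19 (1.40-fold) and ENB1 by 0.42 ± 0.22 (1.34-fold). Of the 7 genes 0 passed, against 4.79% of all genes, and 5 of the 7 at an unadjusted p of 0.05, against 17.5%. SIT1 and FIT1 passed without dN replicate 2, and SIT1 without dN replicate 3. The median over the 7 genes was 0.48, and 0.45 with insulin precursor, while the median over all genes lay between -0.02 and 0.04 in each of the 9 comparisons of strains.

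In cells without HAC1 the pattern was another. ENB1 was lower by 1.14 ± 0.22 on the log2 scale in dI than in dN, that is 2.20-fold, and lower by 0.67 ± 0.22 in dA than in dN, that is 1.59-fold, with no overlap between arrays in either comparison. The dI arrays lay wholly below the dN arrays for 13.3% of all genes, and the dA arrays for 13.0%. For insulin precursor ENB1 was the 1 of the 7 genes that passed, as lower, where 5.78% of all genes did, and in a fit of only the dI and dN arrays it did not pass. The other differences between dI and dN were -0.33 for SIT1, -0.42 for ARN1, -0.36 for FIT2 and 0.21 for FIT3, with overlapping arrays. Without dN replicate 3 they were 0.30, -0.18, -0.12 and 0.44, and that of ENB1 was -0.89.

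Between dA and dN, 0 of the 7 genes passed, against 11.8% of all genes in either direction (5.85% lower), and 2 of the 7 at an unadjusted p of 0.05, against 26.7%. SIT1 differed by 0.47, FIT3 by 0.33, FIT2 by -0.09 and ARN1 by -0.22, with overlapping arrays. Without dN replicate 3, SIT1 differed by 1.09, FIT3 by 0.56, FIT2 by 0.16, ARN1 by 0.01 and ENB1 by -0.42, and SIT1, FIT3 and ARN2, the last at background, then passed. ENB1 passed, as lower, without dN replicate 2, dI replicate 2 or dA replicate 1. The direction for ARN1, and the direction for SIT1 with insulin precursor, therefore rested on dN replicate 3. FIT2 turned sign without that array and also without dA replicate 2, where it differed by 0.04.

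The effect of a protein in the deletion background minus that in wild type was below 0 for all 5 genes and both proteins with all arrays, and for all but FIT3 with α-amylase without dN replicate 3. For insulin precursor it was -1.48 ± 0.30 for ENB1, -1.45 ± 0.56 for SIT1, -1.10 ± 0.32 for FIT2, -0.86 ± 0.28 for ARN1 and -0.40 ± 0.27 for FIT3. For α-amylase it was -1.09 ± 0.30 for ENB1, -0.88 ± 0.56 for SIT1, -0.72 ± 0.28 for ARN1, -0.62 ± 0.32 for FIT2 and -0.16 ± 0.27 for FIT3. The values for insulin precursor without dN replicate 3 were -1.23 for ENB1, -0.82 for SIT1, -0.86 for FIT2, -0.63 for ARN1 and -0.16 for FIT3. For α-amylase they were -0.84 for ENB1, -0.25 for SIT1, -0.49 for ARN1, -0.38 for FIT2 and 0.08 for FIT3, so the array carried much of the size for SIT1 and FIT3. In the fit across all genes 1 of the 7 passed for insulin precursor, ENB1 as lower, where 0.128% of all genes did, and 0 of the 7 passed for α-amylase, where 0.844% were lower. ENB1 passed in 6 of the 18 fits that left out 1 array, among them that without dN replicate 3. Both sets use the WN and dN arrays, so they are not separate pieces of evidence.

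**Figure D1:**
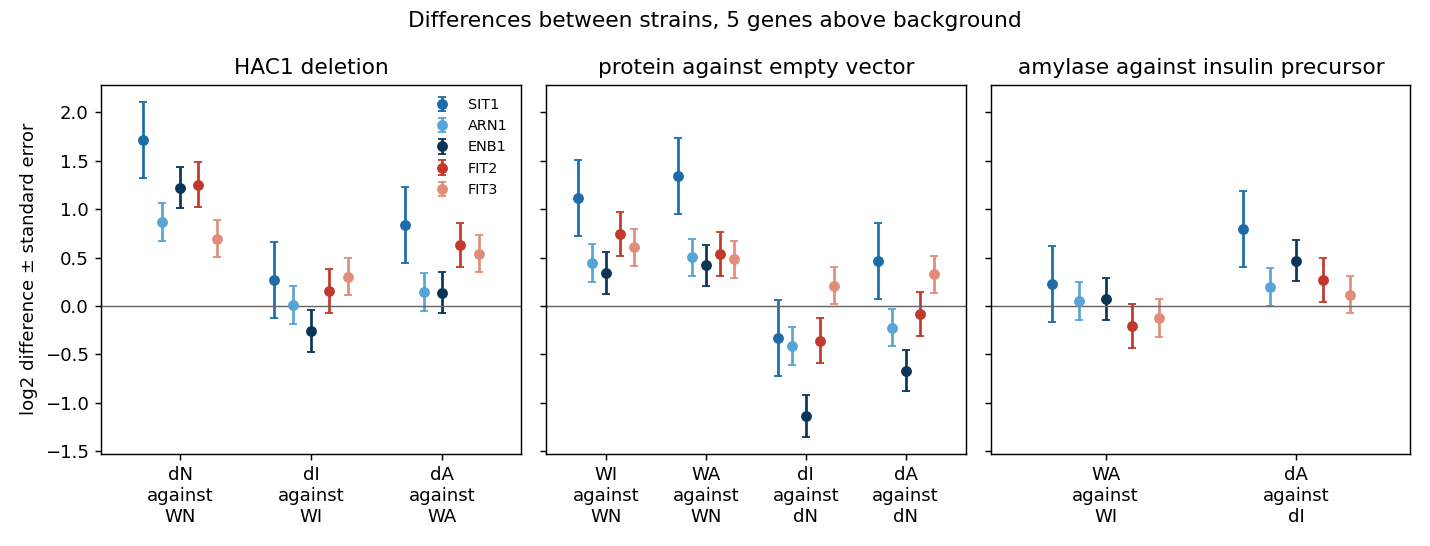
Log2 difference between strains (vertical axis, log2 units) for the 5 genes above background, with standard errors as bars, for the comparisons of deletion with wild type, of secreting with empty vector strains and of the 2 proteins with each other (horizontal axis). The differences of dN from WN lie between 0.70 and 1.72, and ENB1 alone lies below 0 in both comparisons of a secreting deletion strain with dN without overlap of the arrays.

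The proteins were also compared with each other. In wild type cells the arrays of WA and WI overlapped for each of the 5 genes above background, with differences of 0.23 for SIT1, 0.08 for ENB1, 0.05 for ARN1, -0.12 for FIT3 and -0.21 for FIT2. Without WI replicate 1 they were 0.22 for ARN1, 0.09 for FIT3 and 0.11 for FIT2, so the direction for both FIT genes rested on that array. In deletion cells SIT1 was higher in dA than in dI by 0.80 ± 0.39 (1.74-fold) without overlap, as were 15.6% of all genes. ENB1 differed by 0.47, FIT2 by 0.27, ARN1 by 0.19 and FIT3 by 0.12 with overlap, FIT3 being at -0.03 without dA replicate 1. In neither comparison did any of the 7 genes pass (0 of 7), and the shares of all genes in either direction were 0.496% and 0.991%. At an unadjusted p of 0.05 it was 2 of the 7 in WA against WI (7.34% of all genes) and 1 in dA against dI (13.7%). Without dN replicate 3, SIT1 passed in dA against dI.

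The genes moved together from array to array within a strain, which the strain contrasts do not use. In 5 of the 6 strains a single array was the highest of its 3 for all 5 genes: WN replicate 3, WI replicate 1, dN replicate 3, dI replicate 2 and dA replicate 1. In WA, replicate 2 was highest for 4 genes and replicate 1 for ARN1. The mean deviation of the 5 genes from their strain means was 0.64 in dN replicate 3, 0.34 in WI replicate 1, 0.32 in dA replicate 1, 0.21 in dI replicate 2 and 0.16 in WN replicate 3. Those 5 arrays were the highest of 3 for 32.3 to 43.1% of all genes, where an even split would give 1 in 3. Over all genes, deviations correlated at 0.62 between WN replicate 3 and dN replicate 3. With dI replicate 2 they correlated at 0.324 for the first and 0.422 for the second. WI replicate 1 correlated negatively with these 3 arrays (-0.695, -0.536 and -0.167). For dA replicate 1 the correlations with the other 4 high arrays were -0.187 to 0.125. Over all 5449 genes, 18 (0.33%) had this combination of highest arrays, and 0 of the 37 other iron genes did. The combination was read from the 5 genes described here, so their place among the 18 was set in advance. Nothing is read from the count of the other iron genes beside so small a share. Cultures are the unit of replication, and what the cultures with the high arrays share was not tested.

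The spread within strains was wide for these genes. SIT1 had a within-strain SD of 0.54, greater than that of 99% of genes, and FIT2 had 0.31, greater than that of 93.1%. ENB1 had 0.29, ARN1 0.26 and FIT3 0.26, while the median over all genes was 0.13. Over the 18 arrays the 10 pairs of the 5 genes had Pearson correlations of 0.461 to 0.906, the highest for the neighbours FIT2 and FIT3. Without dN replicate 3 the range was 0.335 to 0.900. With all 18 arrays and each gene centred on its strain means it was 0.633 to 0.937, a range not taken without dN replicate 3. The arrays share strain and culture, so these correlations are a description and carry no p.

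**Figure D2:**
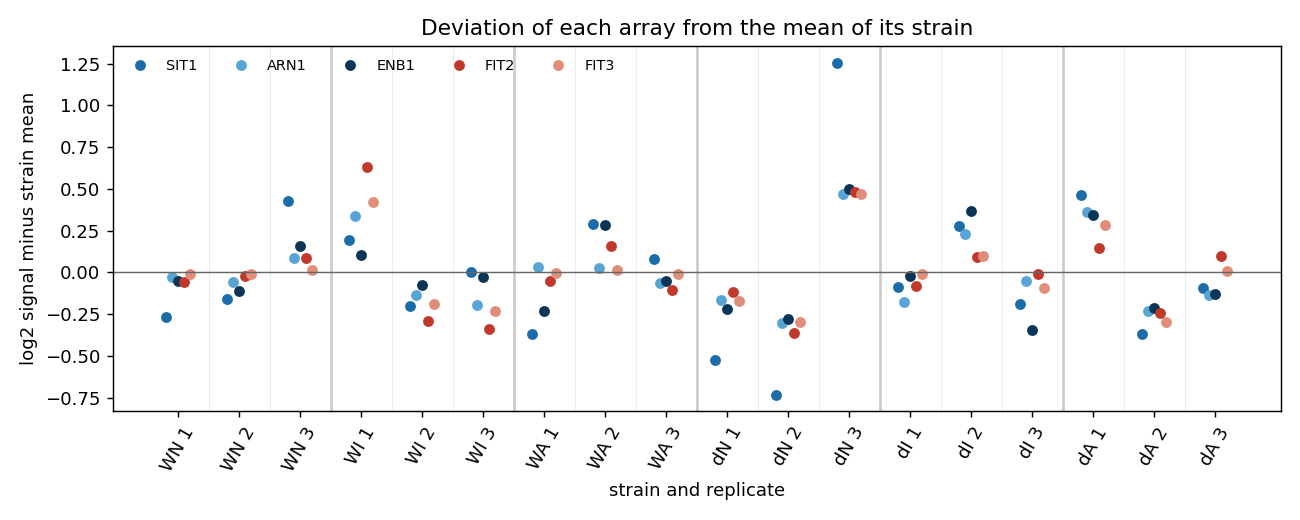
Deviation of each of the 5 genes from its mean in the same strain (vertical axis, log2 units) in each of the 18 arrays (horizontal axis, grouped by strain), with 1 point per gene and array. All 5 points are highest in WN replicate 3, WI replicate 1, dN replicate 3, dI replicate 2 and dA replicate 1, with means of 0.16, 0.34, 0.64, 0.21 and 0.32.

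The genes whose signal was most like the mean of the 4 transporters over the 18 arrays, each gene centred on its own mean, included parts of the reductive iron route. FET3, the multicopper ferroxidase, had a Pearson correlation of 0.92 and CCC2, which supplies copper to Fet3, had 0.88, followed by PPT1 at 0.88, MCM7 at 0.86 and RPA12 at 0.85. For the mean of the 3 FIT genes the highest were YPR063C at 0.83, INA1 at 0.82, CYK3 at 0.82, CBS2 at 0.80 and MRPL4 at 0.79. For single genes the closest was CYK3 for SIT1 (0.92), CCC2 for ARN1 (0.87) and for ENB1 (0.93), CDC12 for FIT2 (0.80) and INA1 for FIT3 (0.86). For the genes at background it was SSL2 for ARN2 (0.79) and CAB3 for FIT1 (0.77). These are ranks over 18 arrays that share strains and cultures. Without dN replicate 3 the correlation with FET3 was 0.87 and that with CCC2 0.82.

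The other genes of iron handling, 37 in number, were set beside them by the limma test over all 5449 genes with Benjamini-Hochberg adjustment. In dN against WN, 7 of the 37 were higher, 1 was lower and 29 did not pass, where 9.49% of all genes were higher and 12.0% lower, and the median over the 37 was 0.10. In the reductive route 3 of 8 genes rose. FRE1, the main cell surface metal reductase, rose by 1.45 ± 0.24 (adjusted p = 0.000389), from 8.42 ± 0.42 in WN to 9.88 ± 0.30 in dN. CCC2 rose by 0.64 (adjusted p = 0.000741), and FET3 by 1.50 ± 0.43 (adjusted p = 0.023). The FET3 call was lost without WN replicate 1, WN replicate 2 or dN replicate 3, with an adjusted p of up to 0.0988, and its difference was 0.90 without dN replicate 3. FTR1, the permease partner of Fet3, differed by 0.20 (adjusted p = 0.515).

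Among the regulators AFT1, the gene of the activator itself, rose by 0.48 in dN (adjusted p = 0.00122), and AFT2, its paralogue, differed by 0.11 (adjusted p = 0.448). GRX3 fell by 0.50 (adjusted p = 3.82e-05), from 9.32 ± 0.01 in WN to 8.81 ± 0.06 in dN. CTH1, an mRNA-binding protein of the iron-sparing response, rose by 0.42 (adjusted p = 0.00365) and CCC1, the vacuolar iron importer, by 0.27 (adjusted p = 0.00375). ISU1, an iron-sulfur scaffold, rose by 0.43 (adjusted p = 0.0372), a call lost in 4 of the 18 fits that left out 1 array, namely WN replicate 1, WN replicate 3, dN replicate 1 or dN replicate 2.

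In both other deletion comparisons 0 of the 8 genes of the reductive route were higher and 1, FRE4, was lower. In dI against WI, 4 of the 37 genes were higher and 4 lower, beside 9.47% and 10.8% of all genes. GRX3 fell by 0.56 (adjusted p = 1.46e-05), and MRS4, the mitochondrial iron carrier, fell by 0.52 (adjusted p = 0.00329). FRE4, a reductase for siderophore iron, was at background in the dI arrays and at least 1.32-fold lower than in WI (adjusted p = 0.00353). CCC1 rose by 0.30 (adjusted p = 0.002). The calls of ISU1 (0.47, adjusted p = 0.0259), AFT1 (0.28, adjusted p = 0.0354), CTH1 (0.27, adjusted p = 0.0402) and YAP5, a factor of the high iron response (-0.31, adjusted p = 0.0499), were each lost when single arrays were left out: ISU1 without WI replicate 2, WI replicate 3 or dI replicate 3, and AFT1 without WI replicate 1, WI replicate 3, dI replicate 2 or dI replicate 3. CTH1 was lost in 7 and YAP5 in 12 of the 18 such fits, with adjusted p of up to 0.14 and 0.219. FET3 differed by 0.16 (adjusted p = 0.847), FTR1 by -0.54 (adjusted p = 0.0712) and AFT2 by 0.01 (adjusted p = 0.95).

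In dA against WA, 0 of the 37 were higher and 4 lower, beside 9.60% and 13.6% of all genes. GRX3 fell by 0.52 (adjusted p = 3.42e-05) and ISU2, the paralogue of ISU1, by 0.65 (adjusted p = 0.000128). FRE4 fell to background in the dA arrays, at least 1.57-fold below WA (adjusted p = 0.000216), and YAP5 fell by 0.37 (adjusted p = 0.0185), which was lost without WA replicate 1, WA replicate 2 or dA replicate 1. AFT1 differed by -0.07 (adjusted p = 0.605), AFT2 by -0.08 (adjusted p = 0.621), FET3 by 0.32 (adjusted p = 0.642) and FTR1 by -0.12 (adjusted p = 0.723). GRX3 was thus lower in all 3 comparisons of a deletion strain with its wild type counterpart.

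When a protein was secreted in wild type cells, few of the 37 genes passed. In WI against WN 0 of the 37 passed in the limma test, beside 0.294% of all genes. At an unadjusted p of 0.05 it was 1 of the 37, beside 6.13% of all genes. There FET3 differed by 0.76 ± 0.43 (adjusted p = 0.914), FTR1 by 0.14 (adjusted p = 0.987), AFT1 by 0.01 (adjusted p = 0.988) and AFT2 by 0.04 (adjusted p = 0.987). In WA against WN 1 of the 37 passed, ISU2, higher by 0.41 (adjusted p = 0.0214), where 3.25% of all genes were higher. The ISU2 call was lost without any 1 of the 3 WN arrays, WA replicate 1 or WA replicate 2. AFT1 differed by 0.26 (adjusted p = 0.134), AFT2 by 0.09 (adjusted p = 0.707), FET3 by 0.90 ± 0.43 (adjusted p = 0.3) and FTR1 by -0.04 (adjusted p = 0.954) in WA.

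In deletion cells secreting a protein, the iron genes that passed were all lower than in dN. In dI against dN 4 of the 37 passed, beside 5.78% of all genes that were lower. FRE4 was at least 1.82-fold lower (adjusted p = 0.000557), FET4, the low-affinity iron transporter, fell by 0.99 (adjusted p = 0.00186), MRS4 by 0.55 (adjusted p = 0.00422) and CCC2 by 0.49 (adjusted p = 0.00925, lost without dI replicate 3 at 0.0555). FTR1 differed by -0.60 (adjusted p = 0.0638), FET3 by -0.58 (adjusted p = 0.396), AFT1 by -0.19 (adjusted p = 0.182) and AFT2 by -0.07 (adjusted p = 0.704). The FET3 difference was 0.01 without dN replicate 3, so it rested on that array. ENB1 and CCC2, the pair with the highest correlation among those above, were both lower in dI than in dN. The correlation was taken over arrays that include these, so the shared direction is not separate evidence.

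In dA against dN 6 of the 37 passed, beside 5.85% of all genes that were lower. FRE1 fell by 1.07 (adjusted p = 0.00894) and FRE4 by at least 1.95-fold (adjusted p = 0.000156). MRS4 fell by 0.44 (adjusted p = 0.0172), lost without dN replicate 1 or dA replicate 2. GEX1, a glutathione exchanger related to the siderophore transporters, fell by 0.61 (adjusted p = 0.0292), ISU2 by 0.34 (adjusted p = 0.0301) and AFT1 by 0.30 (adjusted p = 0.0413). The calls of GEX1, ISU2 and AFT1 were lost in 4, 5 and 12 of the 18 fits that left out 1 array, each reaching its highest adjusted p, 0.123, 0.129 and 0.138, without dN replicate 1. FET3 differed by -0.28 (adjusted p = 0.735), FTR1 by -0.35 (adjusted p = 0.285) and AFT2 by -0.10 (adjusted p = 0.579). The FET3 difference was 0.32 without dN replicate 3, so its direction rested on that array. Between the 2 proteins 0 of the 37 passed in limma. Of all genes 0.496% did in WA against WI and 0.991% in dA against dI. At an unadjusted p of 0.05 it was 2 of the 37 in WA against WI (7.34% of all genes) and 4 in dA against dI (13.7%).

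**Figure D3:**
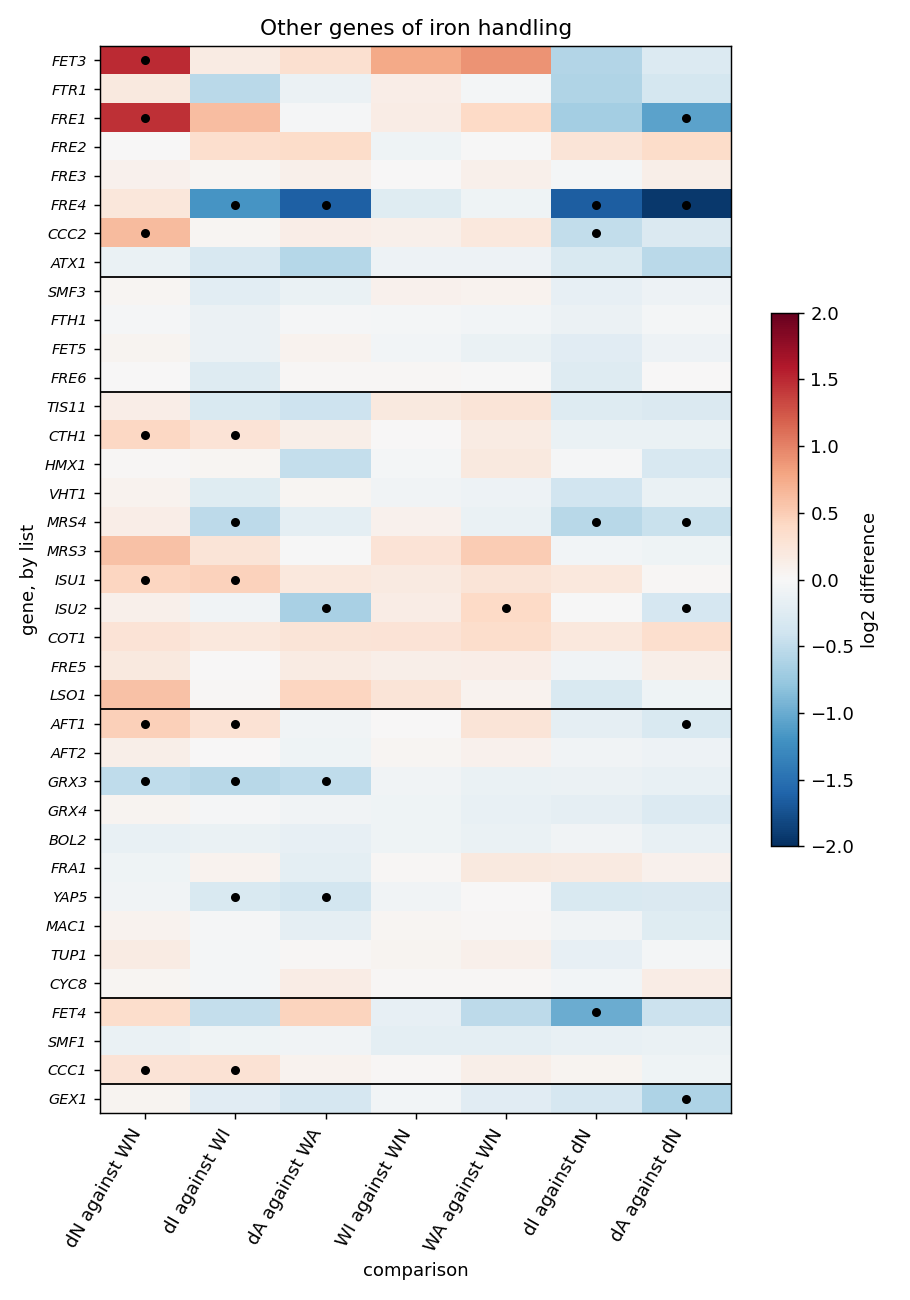
Log2 difference (color scale, log2 units) of the other iron genes (vertical axis, grouped by list), with genes that passed an adjusted p of 0.05 marked. The comparisons (horizontal axis) are those of deletion with wild type and of secreting with empty vector strains. FRE1, FET3, CCC2 and AFT1 are marked as higher in dN against WN, and GRX3 as lower in the 3 comparisons of deletion with wild type.

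The FIT genes were also set beside 20 other genes of cell wall mannoproteins. In dN against WN 4 of the 20 were higher and 1 lower, beside 9.49% and 12.0% of all genes. In dI against WI it was 8 and 1, beside 9.47% and 10.8%, and in dA against WA 4 and 1, beside 9.60% and 13.6%. Of the 8 higher in dI, PIR3, PST1, TIP1 and HSP150 did not pass in 5, 8, 9 and 14 of the 18 fits that left out 1 array. HPF1, a haze-protective mannoprotein, rose by 2.29 ± 0.26 (adjusted p = 9.26e-06), 2.50 (adjusted p = 3.67e-06) and 2.54 (adjusted p = 3.66e-06) in these 3 comparisons. DAN4, an anaerobic wall protein, fell in each, with log2 differences of -1.94 (adjusted p = 2.14e-11), -1.66 (adjusted p = 1.52e-10) and -1.59 (adjusted p = 2.7e-10). PIR1, which is linked to the wall glucan, rose by 0.58 (adjusted p = 0.000797), 0.58 (adjusted p = 0.000842) and 0.66 (adjusted p = 0.000231). SPI1, a wall protein of stationary phase cells, rose by 0.84 in dI (adjusted p = 0.00215). TIR4 passed as higher in dN (adjusted p = 0.0167), with WN at background, a call lost without WN replicate 1 or WN replicate 2, and its difference of 0.47 was 0.29 without dN replicate 3. It also passed in dA (adjusted p = 0.0127, lost without dA replicate 3), where both dA and WA were at background, so it has no fold change there. TIR3 passed as higher in dN against WN (1.35 ± 0.39, adjusted p = 0.025). Its call was lost without WN replicate 1, WN replicate 2 or dN replicate 3, and without dN replicate 3 it differed by 0.72. The median over the 20 genes was 0.12 in dN against WN.

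In wild type cells 0 of the 20 mannoprotein genes passed with insulin precursor in limma, beside 0.294% of all genes. At an unadjusted p of 0.05 it was 4 of the 20, beside 6.13% of all genes. With α-amylase 4 of the 20 were higher, beside 3.25% of all genes. SPI1 rose by 1.55 (adjusted p = 3.9e-05), YGP1, a secreted glycoprotein of starved cells, by 1.97 (adjusted p = 0.000414) and TIP1, a cold shock mannoprotein, by 1.24 (adjusted p = 0.000352), and PIR1 by 0.50 (adjusted p = 0.0104, lost without WN replicate 1 or WA replicate 2). SPI1 was also higher in WA than in WI by 0.84 (adjusted p = 0.0336, lost in 13 of 18 fits that left out 1 array). In dI against dN 4 of the 20 were higher and 1 lower, beside 7.05% and 5.78% of all genes. The lower one was TIR4 (-0.42, adjusted p = 0.0408), with dI at background. Its call was lost in 10 of the 18 fits that left out 1 array, and it differed by -0.24 without dN replicate 3. SPI1 rose by 1.36 (adjusted p = 7.71e-05), YGP1 by 2.01 (adjusted p = 0.000196) and TIP1 by 0.77 (adjusted p = 0.00698). PIR3, a relative of PIR1, passed there too (2.07 ± 0.59, adjusted p = 0.0323), but not without dN replicate 3, where it was 1.17 (adjusted p = 0.0614), or without any 1 of the dI arrays. In dA against dN 4 of the 20 were higher and 0 lower, beside 5.91% and 5.85% of all genes. SPI1 rose by 1.24 (adjusted p = 0.000203), YGP1 by 1.64 (adjusted p = 0.00117), TIP1 by 1.10 (adjusted p = 0.000595) and PIR1 by 0.58 (adjusted p = 0.00179). Against the same dN arrays, FIT2 differed by -0.36 with insulin precursor and -0.09 with α-amylase, and FIT3 by 0.21 and 0.33.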

How the data were processed

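The deposited values are log2 signals of 10928 probe sets, which the authors obtained in R from perfect-match probes (RMA background correction, then qspline scaling between arrays, then median polish). No further normalization was applied. Because of that scaling the values cannot show a change of total mRNA per cell. Of the probe sets, 5498 match 5449 S. cerevisiae genes, and for 47 genes with several probe sets the one with the highest mean was taken. The fit used limma 3.58.1 under R 4.3.3 with 1 mean per strain, leaving 12 degrees of freedom. Benjamini-Hochberg adjustment ran over the 5449 genes, and the code was tested on simulated data. Figures were drawn with matplotlib 3.10.9.

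The 7 genes and all gene lists were chosen with earlier results of these data known. The text names the 7 genes, AFT1, AFT2, FET3, FTR1 and up to 4 of the smallest adjusted p per list and comparison. Some further genes are named because their call was lost without single arrays. FRE5 and the pattern of highest arrays were chosen after their values were seen. A search of promoters for motifs was not run here, and GEX2 was not paired with a probe set.

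Replicates are separate cultures (n = 3). Each same-numbered correlation was over 0.1 for WA and WI (0.402 to 0.675) and for dA and dI (0.116 to 0.356). The same held for dN and WN, in the 2 pairs that could be formed (0.458 and 0.62). Unlike-numbered arrays also passed 0.1, at 0.417 for WI replicate 3 with WA replicate 2. They reached 0.125 for dI replicate 2 with dA replicate 1 and 0.297 for WN replicate 1 with dN replicate 2. These correlations therefore do not show that the numbers pair cultures, and the main fit used no pairing. A dN array has no number in its title, and its number 1 is only a name.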

Additional observations from a re-analysis of the deposited data

Results flagged for a closer look

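For 4 of the genes the mean effect of insulin precursor had opposite signs in the 2 backgrounds: every WI array lay above the WN mean and every dI array below the dN mean. The dI and dN arrays themselves overlapped for SIT1, ARN1 and FIT2, but not for ENB1. The effect in the deletion minus that in wild type was -1.45 for SIT1 (1.11 in wild type, -0.33 in the deletion), -0.86 for ARN1 (0.45 and -0.42), -1.48 for ENB1 (0.34 and -1.14) and -1.10 for FIT2 (0.74 and -0.36). For α-amylase the same held for ENB1, at -1.09 (0.42 and -0.67). No p is given for these 5 results, since the genes were chosen with these contrasts known. In the fit across all genes ENB1 with insulin precursor passed, though in only 6 of the 18 fits that left out 1 array, and the other 4 did not. Without dN replicate 3 the 5 values were -0.82, -0.63, -1.23, -0.86 and -0.84. The effect of insulin precursor on SIT1 in the deletion was then 0.30, the same direction as in wild type. It was -0.18 for ARN1, -0.12 for FIT2 and -0.89 for ENB1.

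For insulin precursor 0 of the 37 other iron genes passed the limma test of the interaction, where 0.128% of all genes were lower. For α-amylase the interaction itself passed, as lower, for 4 of the 37, where 0.844% of all genes were lower. It was -1.47 ± 0.33 (SE) for FRE1 (adjusted p = 0.0423), -1.85 ± 0.35 for FRE4 (adjusted p = 0.0166, with the dA arrays at background), -0.74 ± 0.13 for ISU2 (adjusted p = 0.0128) and -0.55 ± 0.13 for AFT1 (adjusted p = 0.0431). ISU2 passed in all 18 fits that left out 1 array, with a highest adjusted p of 0.0454. FRE4 did not pass in 5 of those fits (up to 0.0572 without WA replicate 2), nor FRE1 in 14 (up to 0.125 without dN replicate 1) or AFT1 in 14 (up to 0.138 without WA replicate 2).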

How the results depend on the processing

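The median differences of the 7 genes moved by less than the spread between replicates under every alternative run, though without single arrays those of dA against WA (-0.03 to 0.28) and dA against dN (-0.22 to 0.16) crossed 0. Of the 45 differences of the 5 brighter genes, 12 changed sign when at least 1 single array was left out, none of them a call, among them SIT1 in dI against dN and FIT2 and ARN1 in dA against dN without dN replicate 3. The median over the 7 genes was not given for genes above background alone, since 5 remain. With only the 2 strains compared in the fit, 2 of the 7 genes passed in dN against WN, 3 in dA against WA, 4 in WA against WN, 0 in dI against dN and 1 in dA against dI, and of the other iron genes 3, 9, 0, 1 and 4, with 2 in dA against dN. With array quality weights, 2 of the 7 passed in dI against WI, 3 in dA against WA, 1 in WI against WN, 6 in WA against WN, 3 in dA against dN and 2 in dA against dI, and of the other iron genes 14, 18, 2, 9, 18 and 7, with 15 in dI against dN and 1 in WA against WI. The share of all genes that passed was not counted under the alternatives given here. The counts therefore show only how the calls depend on the setting, and nothing about the genes is read from them. At an adjusted p of 0.01, 4 other iron genes passed in dI against WI, 0 in WA against WN and 2 in dA against dN. With quantile normalization 1 of the 7 passed in dA against WA. With the replicate number as a block, 1 of the 7 (FIT3) and 7 other iron genes passed in dA against WA, and the block moved no other count by over 1.5 times. That comparison's numbers correlated at -0.00 to 0.05, so they are shared in name only. When arrays were left out in turn, the members passing ranged over 4 to 5 in dN against WN, 0 to 3 in dA against WA, 0 to 1 in WI against WN, 0 to 2 in WA against WN, 0 to 3 in dA against dN and 0 to 1 in dA against dI, and stayed at 0, 1 and 0 in dI against WI, dI against dN and WA against WI. The other iron genes ranged over 6 to 9, 3 to 9, 0 to 3, 2 to 13, 0 to 1, 4 to 12 and 3 to 11 in dN against WN, dA against WA, WA against WN, dA against dN, dA against dI, dI against WI and dI against dN. The highest counts came mostly without dN replicate 3, and 3 arrays a strain and signals at background for ARN2 and FIT1 limit the precision.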
